A study of Homo sapiens with 6 samples.

Results

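The 10 genes described here encode the 5 perilipins that coat lipid droplets (PLIN1, PLIN2, PLIN3, PLIN4 and PLIN5) and 5 proteins of droplet assembly and growth (CIDEB, CIDEC, HILPDA, BSCL2 and FITM2). They were taken by gene symbol, and all 10 were found among the 58037 gene rows of the authors' deposited expression table. Their values come from 6 poly-A RNA-seq libraries of HepaRG, a human hepatic line that differentiates into hepatocyte-like and biliary-like cells. The 3 control samples were differentiated HepaRG cells kept for 72 h with 0.02% bovine serum albumin, and the 3 fatty acid samples received palmitate and oleate (1 part to 2, 0.5 mM) bound to 0.02% albumin for the same time. Every sample was of passages 15 to 18 and had been grown for 14 days, differentiated for 14 days and held for 5 days in basal medium with insulin and hydrocortisone. HepaRG is a line from 1 tumour, and the labels do not say whether replicates were separate cultures, so p-values cover only the spread among these libraries, and that may be technical spread. By its title, the study asked what steatosis-like loading of these cells does to drug metabolism and transport. The genes below are those of the droplets that such loading fills.

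Neutral lipid made in the endoplasmic reticulum (ER) gathers between the leaflets of the membrane and buds into the cytosol as a droplet wrapped in a phospholipid monolayer. Seipin, the product of BSCL2, and FITM2 act at the ER where droplets form, CIDE proteins pass lipid between touching droplets so that large ones grow, and perilipins cover the surface and govern the access of lipases. In hepatocytes PLIN2 is the classic droplet coat, whereas PLIN1 and CIDEC are best known from adipocytes, and several of these genes are known targets of the fatty acid receptors of the PPAR family.

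Values are FPKM, fragments scaled by gene length and by the assigned reads of the library, so levels can be compared between genes. Errors are SD with n = 3 per group. Log2 fold changes are fatty acid minus control of log2(FPKM + 0.5) ± SE, a scale that understates the change of low genes. A gene rose or fell where the limma p, adjusted over all 14661 genes tested, was under 0.05. Libraries 1, 2 and 3 held 8.96, 6.33 and 11.8 M reads in the controls and 8.36, 14.4 and 15.9 M with fatty acid. Read counts given below for the groups are therefore not on the same scale unless adjusted for depth. Correlations of log2 values between libraries ran from 0.969 to 0.978 within controls, from 0.985 to 0.986 within fatty acid samples and from 0.962 to 0.980 between the groups. Of 10 hepatocyte markers, 6 fell and 3 rose with fatty acid, beside 4.68% and 8.22% of all tested genes. ALB stood at 12025 ± 318 and 7127 ± 306 FPKM, and TF, TTR and AHSG had log2 fold changes of -1.05, -1.27 and -1.26. The 3 that rose were FGB (0.71), HP (0.39) and SERPINA1 (0.27), and APOB did not pass (0.23, limma adjusted p = 0.432). The summed hepatocyte marker level was 17325.4 to 18093.8 FPKM in controls and 13809.8 to 14307.2 FPKM with fatty acid. ALB carried that fall, since the summed level of the other 9 markers was 5506.0 to 5773.5 FPKM in controls and 6813.5 to 6983.8 FPKM with fatty acid. Of 6 biliary markers, none of the 4 tested passed (summed level 361 to 435 FPKM in controls, 360 to 375 with fatty acid). KRT19, at 343 ± 36.6 and 316 ± 9.49 FPKM, made up most of that sum, and EPCAM was listed at 0 in every library. KRT7 was low and stood at 0.653 ± 0.0327 and 1.04 ± 0.0909 FPKM, without overlap of the groups (limma adjusted p = 0.0852). It was called higher without the trend (adjusted p = 0.0286). None of 5 tested mesenchymal markers passed, nor did CD14, the 1 immune marker that was expressed enough to be tested. Alternatives called CD14 higher without control library 1 (0.47, limma adjusted p = 0.0145) and COL3A1, a fibrillar collagen, lower with a minimum of 2 FPKM (0.0406), with voom (0.0139) and without fatty acid library 3 (0.0440). Mitochondrially encoded genes took 12.2, 13.7 and 15.0% of reads in the controls and 9.86, 9.15 and 11.9% with fatty acid, without overlap; PLIN1, PLIN2 and PLIN4 kept their calls when values were scaled to the reads of nuclear genes alone. In bulk RNA, fewer cells of a type and less RNA per cell cannot be told apart, and the part of cell composition in the results below was not tested.

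PLIN2, PLIN4 and PLIN1 rose with fatty acid, and none of the other 6 tested genes passed the threshold in either direction. PLIN2 rose 2.70-fold, PLIN1 1.64-fold and PLIN4 1.52-fold. The tested genes numbered 9, since BSCL2 lay below the expression minimum of 0.5 FPKM. The 3 of 9 that rose stand beside 8.22% of all tested genes that rose, and the 0 of 9 that fell beside 4.68% that fell. By unadjusted limma p under 0.05, 5 were higher, PLIN3 and FITM2 being the additional ones, and 0 lower; voom on recovered reads called 4 higher and 0 lower. The balance of all calls, 1205 higher and 686 lower, depended on scaling, with 779 and 818 by the median of ratios and 2615 and 408 after rescaling to TPM, which moved the median of all genes from 0.04 to 0.18. The groups did not overlap for 5 genes that were higher with fatty acid (PLIN1, PLIN2, PLIN3, PLIN4 and FITM2) and for 1 that was lower (PLIN5), beside 23.7% and 13.3% of all tested genes (37.1% in either direction). The median log2 fold change of the 9 genes was 0.22, and that of all tested genes was 0.04.

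**Figure D1:**
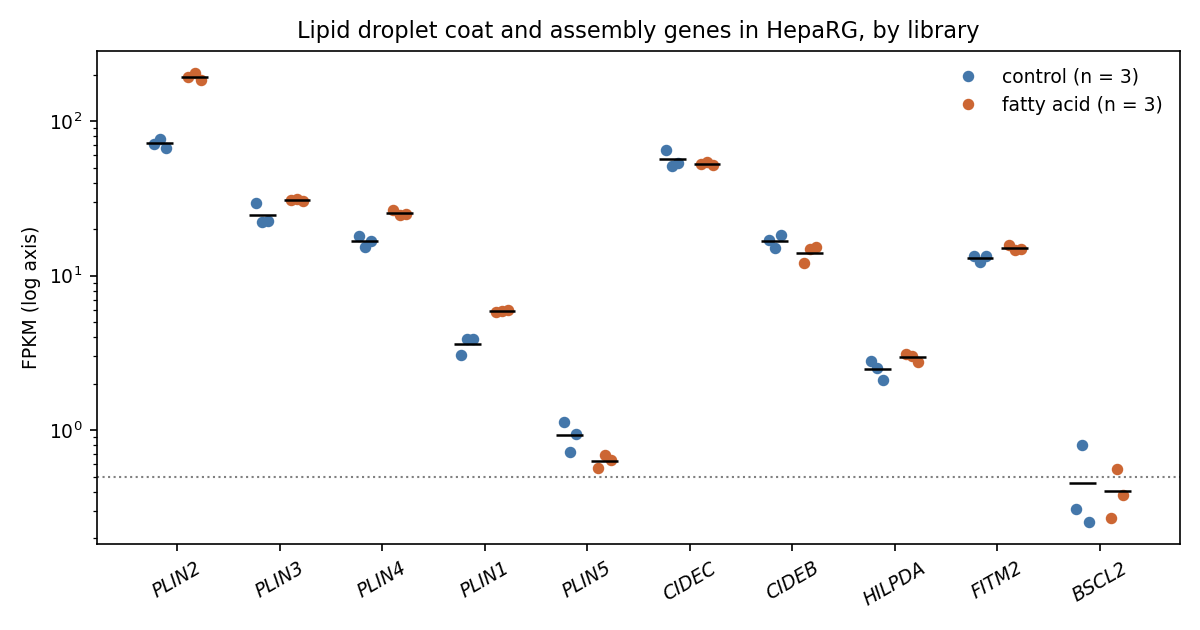
FPKM (log axis) of each of the 10 genes in the 3 control and 3 fatty acid libraries; points are libraries, horizontal bars are group means, and the dotted line marks the minimum of 0.5 FPKM. The PLIN2 points with fatty acid (184 to 204) lie far above those of controls (67.4 to 76.9), while the CIDEC points overlap and BSCL2 lies around the minimum.

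PLIN2, also called adipophilin, is the ubiquitous droplet coat protein and is degraded when it is not bound to a droplet (chromosome 9, 19108375 to 19149290, minus strand; all positions here are in GRCh38). Its level was 71.5, 76.9 and 67.4 FPKM in control libraries 1, 2 and 3, and 194, 204 and 184 FPKM in fatty acid libraries 1, 2 and 3. Every fatty acid library stood above every control, and the gap between the groups was wider than the spread within either. The log2 fold change was 1.43 ± 0.07 (limma adjusted p = 8.74e-05), with a 95% interval of 1.28 to 1.58. PLIN2 was the most abundant of the 10 genes in both groups. It lay above 97.1% of all tested genes in the controls and above 99.1% with fatty acid. Controls gave 9790 PLIN2 reads and fatty acid libraries 38124, a ratio of 2.73 after adjustment for depth.

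PLIN4, an S3-12 type perilipin built around a long run of repeats and found on small nascent droplets, lies on chromosome 19 (4502180 to 4518465, minus strand). It was at 18.1, 15.4 and 16.8 FPKM in the controls and at 26.8, 24.7 and 24.9 FPKM with fatty acid. The groups were well separated, and the fatty acid libraries lay within 2.04 FPKM of each other. Its log2 fold change was 0.59 ± 0.07 (limma adjusted p = 0.00323).

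PLIN1, the perilipin of adipocytes that holds back hormone-stimulated lipolysis (chromosome 15, 89664365 to 89679427, minus strand), was at 3.06, 3.87 and 3.90 FPKM in the controls. With fatty acid it was at 5.79, 5.94 and 5.98 FPKM. The lowest value belonged to control library 1, and all fatty acid libraries lay above all controls. This gave a log2 fold change of 0.65 ± 0.10 (limma adjusted p = 0.00785), from 372 and 870 reads. Of 7 adipocyte markers, 4 were tested and 2 rose (FABP4 and CD36), beside 8.22% of all tested genes that rose. CD36 did not pass when any 1 fatty acid library was left out. The summed level of the 7 markers was 47.4 to 58.5 FPKM in controls and 93.8 to 105 FPKM with fatty acid. Of the other 5 markers, LEP, CIDEA and ADIPOQ lay under the expression minimum. LEP and CIDEA were listed at 0 in every library. ADIPOQ, the adipocyte hormone adiponectin, had 0.0870 ± 0.0442 FPKM in controls and 0.112 ± 0.0482 FPKM with fatty acid. LPL stood at 32.8 ± 1.74 and 30.9 ± 0.959 FPKM (limma adjusted p = 0.367) and PPARG at 3.68 ± 0.386 and 3.82 ± 0.314 FPKM, and FABP4 went from 17.1 ± 4.47 to 62.1 ± 5.95 FPKM.

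PLIN3, or TIP47, is a cytosolic perilipin that is recruited to young droplets (chromosome 19, 4838341 to 4867768, minus strand). It stood at 29.6, 22.3 and 22.6 FPKM in the controls and at 30.6, 31.5 and 30.2 FPKM with fatty acid. Control library 1 came close to the fatty acid libraries, and the other controls lay well below them. The log2 fold change was 0.32 ± 0.11 (limma adjusted p = 0.0916). Without control library 1 the gene passed the threshold (log2 fold change 0.45, adjusted p = 0.00291), as it did after rescaling to TPM (0.46, adjusted p = 0.0346) and with voom on recovered reads (0.32, adjusted p = 0.0193).

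PLIN5, which ties droplets to mitochondria in oxidative tissues, was the least expressed perilipin (chromosome 19, 4522531 to 4535224, minus strand). It was at 1.14, 0.722 and 0.949 FPKM in controls and at 0.571, 0.694 and 0.638 FPKM with fatty acid. The groups did not overlap, but the nearest control and fatty acid libraries were only 0.0280 FPKM apart. The log2 fold change was -0.33 ± 0.16 (limma adjusted p = 0.214, 95% interval -0.71 to 0.05), from 125 and 120 reads. The ratio of reads after adjustment for depth was 0.673, with an exact 95% interval of 0.520 to 0.872 that covers counting error only. A predicted gene on the same strand shares 21.7% of the PLIN5 exon bases, so the counting may have split or left out reads there.

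PLIN4 and PLIN5 are neighbours on chromosome 19, 4.07 kb apart on the same strand, with PLIN3 another 303 kb further along. The ratio of PLIN4 to PLIN5 was 15.9, 21.3 and 17.7 in the controls and 46.9, 35.6 and 39.1 with fatty acid, a rise of its mean by 2.21 times. The RefSeq upstream windows (GRCh38.p14, 250 bases ending just before the annotated start, minus strand) of these adjacent genes are printed because their estimates went in opposite directions; capitals mark TATAA, a core promoter motif, searched on both strands. The windows are chr19:4518487-4518736 for PLIN4 and chr19:4535225-4535474 for PLIN5.
PLIN4: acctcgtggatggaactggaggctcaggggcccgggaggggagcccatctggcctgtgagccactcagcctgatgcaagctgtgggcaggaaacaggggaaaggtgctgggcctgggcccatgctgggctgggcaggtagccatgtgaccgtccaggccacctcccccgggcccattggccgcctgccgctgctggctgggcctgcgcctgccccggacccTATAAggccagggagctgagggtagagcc
PLIN5: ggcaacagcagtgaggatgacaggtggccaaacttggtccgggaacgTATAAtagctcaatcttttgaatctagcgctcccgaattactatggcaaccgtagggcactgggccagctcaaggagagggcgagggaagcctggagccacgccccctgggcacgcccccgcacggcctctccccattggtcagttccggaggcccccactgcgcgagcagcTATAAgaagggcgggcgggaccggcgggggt
Both windows hold TATAA close to the start, with its first base at position -29 in PLIN4 and -31 in PLIN5 (counted back from -1, the base before the start), and PLIN5 has another at -203. TATAA was present in 5 of the 13 windows of the 9 genes with a RefSeq entry, also at -28 in PLIN2, -29 in BSCL2 and -123 in PLIN1, and in 18.9% of the 35097 RefSeq windows of this length. The PLIN2 match is on the strand opposite to the gene, whose own strand reads TTATA. For PLIN2, the gene with the largest change, the window before the RefSeq start lies inside the longer gene span given above, and its last 84 bases are annotated PLIN2 exon. Within that exon lay the TATAA match at -28 and an E-box (CACGTG) with its first base at -69. The E-box is printed in capitals within 30 bases (chr9:19127544-19127573, minus strand).
PLIN2: gctgccgcgggtCACGTGctgcggaggctt
CACGTG was found in 6.34% of all windows and in 1 of the 13 windows of the 9 genes with a RefSeq entry. The nuclear receptor motif AGGTCA, found in 12.1% of all windows, and its direct repeat AGGTCANAGGTCA, found in 0.0171%, were in none of the 13 windows. Annotated exon of the same gene also filled part or all of other windows. It made up all 250 bases of a CIDEB window and 220, 115 and 101 bases of BSCL2, CIDEC and PLIN3 windows. The repeat contains the shorter motif, no other of these motifs overlaps another by construction, and all were searched on both strands. These are matches of letters, not binding sites.

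The perilipin pool grew and shifted toward PLIN2. The summed FPKM of the 5 perilipins was 123, 119 and 112 in the controls and 258, 267 and 246 with fatty acid, 2.18 times higher on average. PLIN2 made up 57.9, 64.5 and 60.4% of the sum in the controls and 75.3, 76.5 and 74.9% with fatty acid, and it accounted for 88.0% of the increase. PLIN3 went from 21.0 ± 2.73% to 12.0 ± 0.271% of the pool and PLIN4 from 14.2 ± 1.13% to 9.92 ± 0.588%. PLIN1 went from 3.07 ± 0.529% to 2.30 ± 0.116% and PLIN5 from 0.792 ± 0.165% to 0.247 ± 0.0222%. PLIN4 and PLIN1 thus held smaller shares although their own levels rose. The share of each perilipin other than PLIN2 was lower in every fatty acid library than in every control. These shares describe mRNA, not protein, and were not tested.

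**Figure D2:**
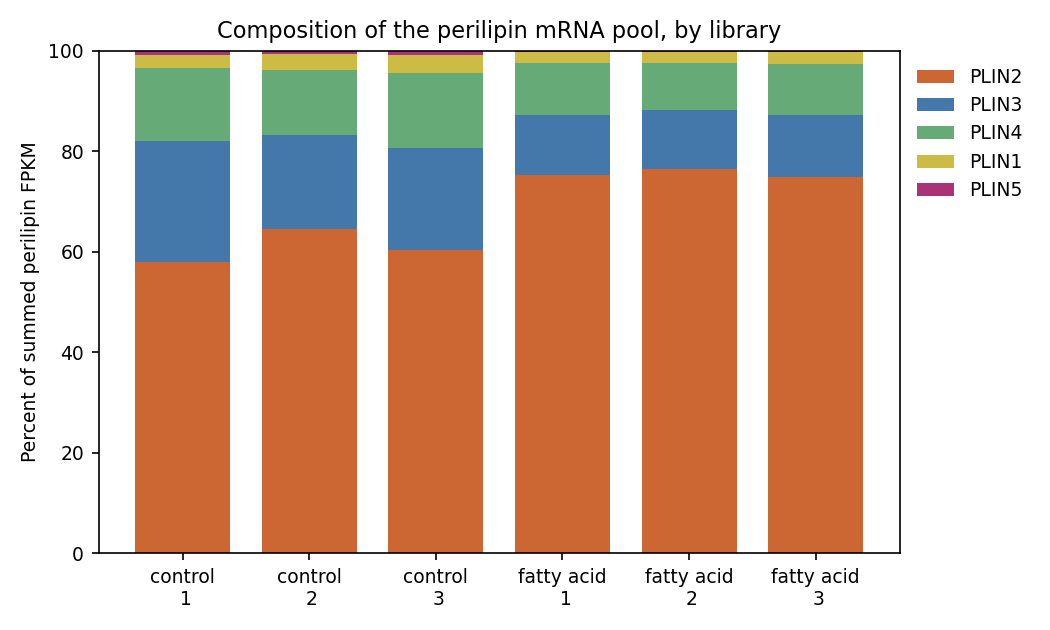
Stacked bars give the percent of the summed FPKM of the 5 perilipins held by each, in the 3 control and 3 fatty acid libraries. PLIN2 fills 57.9 to 64.5% of the bar in controls and 74.9 to 76.5% with fatty acid, while PLIN3 shrinks from 21.0 to 12.0% on average.

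The CIDE genes did not pass the threshold. CIDEC, also known as FSP27, enlarges droplets by lipid exchange and was the next most abundant of the 10 genes after PLIN2 (chromosome 3, 9866711 to 9880254, minus strand). It stood at 64.9, 51.1 and 53.5 FPKM in the controls and at 53.0, 54.1 and 51.9 FPKM with fatty acid. Control library 1 was high and the other 5 libraries lay within the same narrow range. The log2 fold change was -0.08 ± 0.09 (limma adjusted p = 0.557), and its 95% interval of -0.29 to 0.12 leaves room for small changes either way. Without control library 1 the estimate turned to 0.019 (adjusted p = 0.815), and after rescaling to TPM to 0.052 (0.764). The ratio of PLIN2 to CIDEC went from 1.29 ± 0.204 to 3.67 ± 0.114.

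CIDEB, the CIDE protein of hepatocytes with a role in loading very low density lipoprotein (chromosome 14, 24305096 to 24311430, minus strand), was at 17.1, 15.0 and 18.2 FPKM in the controls. With fatty acid it was at 12.0, 14.8 and 15.4 FPKM. The groups overlapped, since fatty acid library 3 lay above control library 2. CIDEB had a log2 fold change of -0.25 ± 0.11 (limma adjusted p = 0.169, 95% interval -0.50 to 0.00397). In GENCODE 29 every exon base of CIDEB also lies in an exon of NOP9 or LTB4R2 on the opposite strand. The library kit marks strand, but whether reads were counted by strand is not stated in the labels or notes. CIDEB nevertheless held 1481 and 1785 reads, and NOP9 stood at 6.62 to 8.39 FPKM and LTB4R2 at 0.815 to 1.55 FPKM. CIDEA, the CIDE gene of brown fat, was listed at 0 in all 6 libraries.

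HILPDA, a small droplet protein that inhibits adipose triglyceride lipase and is induced by hypoxia and by fatty acids (chromosome 7, 128455849 to 128458418, plus strand), was at 2.80, 2.52 and 2.13 FPKM in the controls. With fatty acid it was at 3.12, 3.03 and 2.76 FPKM. Control library 1 reached above fatty acid library 3, so the groups overlapped. HILPDA had a log2 fold change of 0.22 ± 0.11 (limma adjusted p = 0.206, 95% interval -0.03 to 0.47), from 137 and 235 reads. Predicted genes on the same strand share 13.2% of the HILPDA exon bases, so the counting may have split or left out reads there. Of 14 genes known to be driven by hypoxia-inducible factors, 2 rose and 3 fell, beside 8.22% and 4.68% of all tested genes, with a median log2 fold change of -0.06. LDHA, lactate dehydrogenase A, and P4HA1, a collagen prolyl hydroxylase subunit, rose with 0.22 ± 0.05 and 0.33 ± 0.07 (limma adjusted p = 0.0351 and 0.0323). CA9, a carbonic anhydrase, fell from 6.49 ± 1.21 to 3.51 ± 0.726 FPKM (limma adjusted p = 0.0232), NDRG1 fell from 10.1 ± 0.280 to 7.78 ± 0.134 FPKM (0.00923) and ADM, the vasodilator adrenomedullin, fell from 22.2 ± 2.01 to 16.8 ± 1.02 FPKM (0.0223). CA9, NDRG1 and ADM lost their calls in some alternatives, and LDHA and P4HA1 were not followed in them. Without fatty acid library 1 the adjusted p was 0.0961 for CA9, 0.0580 for NDRG1 and 0.0880 for ADM.

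FITM2, an ER protein needed for droplets to bud toward the cytosol (chromosome 20, 44302838 to 44311169, minus strand), was at 13.5, 12.3 and 13.4 FPKM in the controls and at 15.8, 14.7 and 14.9 FPKM with fatty acid. All fatty acid libraries lay above all controls by a small margin. FITM2 had a log2 fold change of 0.21 ± 0.06 (limma adjusted p = 0.0650, 95% interval 0.07 to 0.35), and it passed only after rescaling to TPM (0.35, adjusted p = 0.0232).

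BSCL2 encodes seipin, which gathers lipid at the site of droplet birth (chromosome 11, 62690275 to 62709845, minus strand). Its row read 0.309, 0.797 and 0.256 FPKM in the controls and 0.271, 0.562 and 0.380 FPKM with fatty acid, from 43 and 65 reads, and it was not tested. No group was high or low as a whole. The depth-adjusted ratio of reads was 1.06, with an exact 95% interval of 0.710 to 1.60. The readthrough gene HNRNPUL2-BSCL2 shares 40.6% of the BSCL2 exon bases on the same strand and was itself listed at 0 to 0.0420 FPKM. Reads that fit several genes are commonly left out by read counters, and the setting for such reads is likewise not stated. The row therefore need not reflect the level of seipin mRNA.

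**Figure D3:**
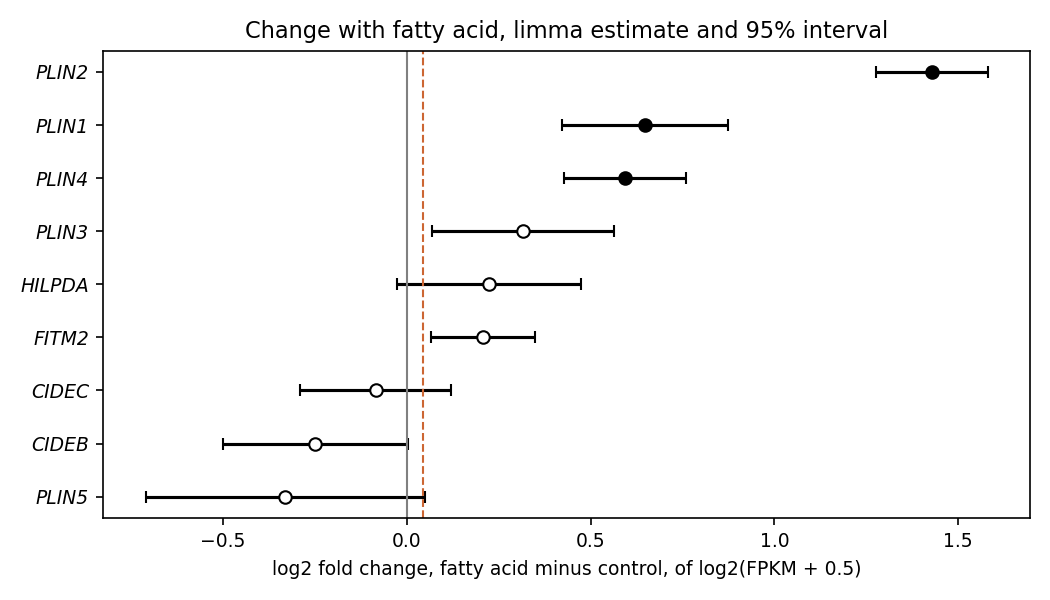
Log2 fold change (fatty acid minus control, of log2(FPKM + 0.5)) of the 9 tested genes with the limma 95% interval; filled points passed the adjusted threshold, the grey line marks 0 and the dashed line the median of all genes, 0.04. PLIN2 stands apart at 1.43, PLIN1 and PLIN4 follow at 0.65 and 0.59, and the intervals of HILPDA, CIDEC, CIDEB and PLIN5 include 0.

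In order of level, the controls ran PLIN2, CIDEC, PLIN3, CIDEB, PLIN4, FITM2, PLIN1, HILPDA, PLIN5 and BSCL2. CIDEB and PLIN4 had overlapping library values, as did PLIN5 and BSCL2, and all other neighbours were separate. With fatty acid PLIN4 moved up to the 4th place, past CIDEB, which went to the 6th, and only FITM2 and CIDEB overlapped as neighbours. PLIN5 with fatty acid lay above only 5.92% of tested genes. Exon bases shared with other genes on either strand made up 100% of CIDEB, 51.9% of BSCL2, 21.7% of PLIN5, 17.85% of PLIN3 and 13.2% of HILPDA. The places of these genes may depend on how reads of shared bases were counted, which is not stated.

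Other droplet genes moved in both directions. Over 5 lists with 41 genes (ER biogenesis, lipid synthesis at droplets, other surface proteins, contacts and traffic, lipolysis), 38 were tested, 5 rose, 6 fell and 27 did not pass, with a median log2 fold change of 0.09. Those calls, 11 of 38, stand beside 12.9% of all tested genes called. Of 6 synthesis genes, 1 rose and 1 fell. ACSL3, the acyl-CoA synthetase of nascent droplets, rose from 15.2 ± 0.271 to 25.4 ± 0.305 FPKM (limma adjusted p = 0.000229). DGAT1, which makes triglyceride in the ER, fell from 16.6 ± 2.17 to 10.45 ± 0.632 FPKM (0.00807), whereas DGAT2, which acts on droplets, stood at 6.46 ± 0.310 and 5.82 ± 0.214 FPKM (0.209).

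Of 10 tested surface proteins, 3 fell and 1 rose. HSD17B13, an enzyme of hepatocyte droplets, fell to 1.04 ± 0.219 FPKM from a control level of 2.91 ± 0.594 FPKM (limma adjusted p = 0.00644). METTL7B, a methyltransferase of ER and droplets, went down from 100.1 ± 2.91 to 73.7 ± 2.10 FPKM (0.00208), and SPG20, which encodes spartin, rose from 4.93 ± 0.184 to 6.29 ± 0.170 FPKM (0.0217). The third that fell was DHRS3, a retinal reductase. SPG20 lost its call without any 1 fatty acid library (adjusted p 0.0961, 0.0766 and 0.0709 without libraries 1, 2 and 3), without control library 3 (0.0625) and with the replicate block (0.0503). None of 4 tested ER biogenesis genes passed, VMP1 having the smallest p (15.9 ± 0.344 and 19.1 ± 1.78 FPKM, limma adjusted p = 0.0627); VMP1 passed with a minimum of 2 FPKM (0.0439), after rescaling to TPM (0.0138) and with voom (0.0177).

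Of 11 contact and traffic genes, RAB3GAP1 and MOSPD2 rose and FAM73B fell. RAB3GAP1, part of the exchange factor for RAB18, went from 8.67 ± 0.268 to 10.3 ± 0.276 FPKM (limma adjusted p = 0.0367). MOSPD2, an ER tether, went from 2.08 ± 0.224 to 2.88 ± 0.218 FPKM (0.0462), and FAM73B (MIGA2), which links mitochondria with ER and droplets, from 3.00 ± 0.711 to 1.85 ± 0.122 FPKM (0.0461). RAB3GAP1 and MOSPD2 lost the call when any 1 library was left out (adjusted p 0.0544 to 0.148 and 0.0629 to 0.146), and FAM73B without every library but control library 2 (0.0516 to 0.146). In all, RAB3GAP1 and MOSPD2 each lost it in 12 of 17 alternatives and FAM73B in 9. For each gene these included no filter, no trend and the replicate block. The median of ratios, quantile normalization and scaling to nuclear reads were among them for RAB3GAP1 and MOSPD2, and rescaling to TPM for FAM73B.

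Of 7 tested lipolysis genes, LIPA rose and PNPLA3 fell. LIPA, the lysosomal acid lipase, rose from 37.4 ± 0.434 to 52.6 ± 1.53 FPKM (limma adjusted p = 0.00109). PNPLA3, a droplet lipase relative, fell from 9.62 ± 0.498 to 7.65 ± 0.265 FPKM (0.0236), a call lost without control library 3 or any 1 fatty acid library (0.0689 to 0.102) and after rescaling to TPM, where the log2 fold change went from -0.31 to -0.19 (0.144). PNPLA2, the adipose triglyceride lipase that perilipins restrain, stood at 49.6 ± 7.62 and 38.6 ± 2.14 FPKM (0.0677), and its inhibitor G0S2 at 38.15 ± 5.43 and 48.6 ± 3.71 FPKM (0.0677). LIPE, the hormone-sensitive lipase that acts on PLIN1-coated droplets, was under the minimum with 4 reads in the controls and 56 with fatty acid (0.0277 ± 0.00586 and 0.277 ± 0.0111 FPKM).

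**Figure D4:**
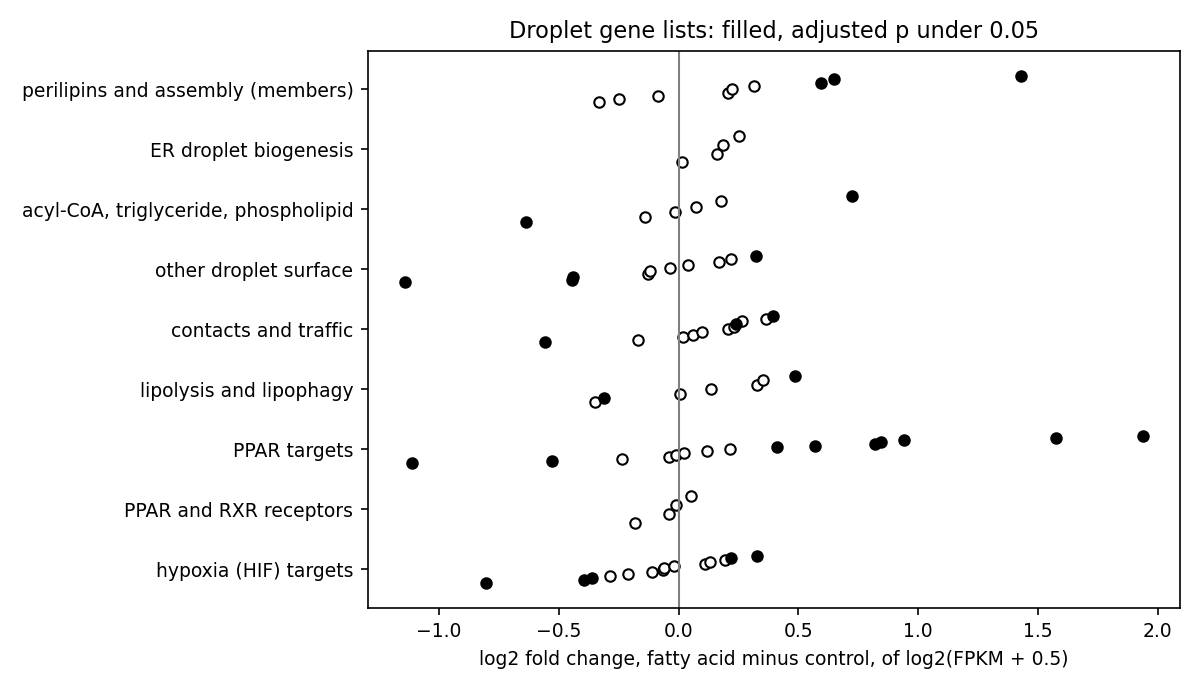
Each point is the log2 fold change (fatty acid minus control, of log2(FPKM + 0.5)) of a tested gene, by list; filled points passed the adjusted threshold. Of the 9 tested perilipin and assembly genes the 3 filled ones are all on the higher side, whereas the 5 droplet lists hold 5 higher and 6 lower calls.

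The PPAR targets drawn up for comparison, 15 genes, held 7 that rose and 2 that fell, beside 8.22% and 4.68% of all tested genes, with a median log2 fold change of 0.22. ANGPTL4, a secreted lipase inhibitor, and PDK4, a pyruvate dehydrogenase kinase, had log2 fold changes of 1.94 ± 0.09 and 1.57 ± 0.07 (both limma adjusted p = 8.74e-05), above that of PLIN2, and VNN1, a pantetheinase, had 0.84 ± 0.05 (0.00014). The 2 that fell were CYP4A11, a fatty acid hydroxylase, with -1.11 ± 0.10 (0.000762) and EHHADH, a peroxisomal oxidation enzyme, with -0.53 ± 0.07 (0.00504). None of the 4 receptor genes passed. PPARA stood at 7.17 ± 0.164 and 6.28 ± 0.445 FPKM (0.138) and PPARG at 3.68 ± 0.386 and 3.82 ± 0.314 FPKM (0.764).

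Across the 6 libraries, the genes with the profile nearest to PLIN2 among 6683 genes of at least 5 FPKM, by root mean square difference of log2 values set to their control means, were CCL2 (0.0623), ADAMTS9 (0.0843) and SLC39A8 (0.0967). PANX1 (0.0431), ICAM1 (0.0626) and IFNGR1 (0.0633) were nearest to PLIN4. ACSL4 (0.0577), TMED5 (0.0619) and MANF (0.0682) were nearest to PLIN1. With 2 groups of libraries this likeness reflects mainly an equal size of change.

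Genes next to the 10 were examined for position. Of the 22 nearest or overlapping tested genes, 3 rose and 2 fell, beside 8.22% and 4.68% of all tested genes, and nothing about position was tested. HAUS6 and DENND4C, the nearest tested genes on either side of PLIN2 (5.26 and 81.1 kb away), rose with log2 fold changes of 0.50 ± 0.08 and 0.45 ± 0.10 (limma adjusted p = 0.0105 and 0.0277). PEX11A, a peroxisome division gene whose span overlaps PLIN1 on the same strand with no shared exon base, rose from 14.2 ± 0.961 to 17.8 ± 0.952 FPKM (0.0307). LTB4R beside CIDEB and HNF4A beside FITM2 were the genes that fell.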

How the data were processed

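The 6 poly-A libraries were made with a stranded kit from 100 ng of RNA, per the labels' protocols. GRCh38, featureCounts, STAR 2.5.2 and Subread 1.5.1 are named, per the submitters' processing notes, with no strand setting stated. The authors deposited FPKM values per gene and library with, per the file headers, each gene's position, strand and length. FPKM times length came in whole multiples of 1 step in every library (100% of the values fine enough to tell, within 0.02 reads beyond rounding), which gave the reads and depths.

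Sample titles gave group and replicate number. Testing was limited to genes averaging 0.5 FPKM or more and used limma 3.58.1 (R 4.3.3) with an intensity trend on log2(FPKM + 0.5), all 6 libraries, no covariate, Benjamini-Hochberg adjustment. A p after a gene is the limma adjusted p. The fit was also run on counts simulated with the same spread setting for every gene and 200 changed genes. That run does not give the error rate in these libraries. Read ratios carry exact binomial intervals (conditional on the total), which cover counting error only. Exon overlaps used GENCODE 29, whose spans and exon lengths equal those deposited for all 10 genes. Upstream windows came from RefSeq (GRCh38.p14), in which 9 of the 10 genes matched by symbol. Tables and figures used Python 3.11.15, pandas 2.3.3, scipy 1.17.1 and matplotlib 3.10.9.

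The 10 genes and all lists were chosen with earlier results of these data known. Named genes were the 10, up to 3 called genes of each list by adjusted p (where none was called, the gene of lowest p), and the 3 nearest profiles for 3 genes. ALB, FGB, HP, SERPINA1, APOB, KRT19, EPCAM, ADIPOQ, LEP, LPL, CYP4A11, EHHADH, LDHA, P4HA1, CIDEA, DGAT2, DHRS3, PNPLA2, G0S2, LIPE, PPARG and the neighbouring genes were named after their values were seen. Alternatives were other pseudocounts, filters and scalings (one to nuclear reads, leaving mitochondrially encoded genes out of the total), no trend, the replicate block, voom on recovered reads and leaving out each library.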

Additional observations from a re-analysis of the deposited data

How the results depend on the processing

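The calls of PLIN1, PLIN2 and PLIN4 and the direction of every tested gene of the 10 except CIDEC were kept in all 17 alternatives (16 for PLIN5, which the minimum of 2 FPKM left out). CIDEC, which was not called in any, reversed after rescaling to TPM (0.052), and with a library left out it ran from -0.15 to 0.019, the latter without control replicate 1. Without that library PLIN3 was called. The number of the 10 called higher was 3 to 4 when a library was left out and 5 after rescaling to TPM, and the number called lower was 0 in all alternatives. Across all genes, the calls higher and lower were 640 and 337 with no filter, 2615 and 408 after rescaling to TPM, and 1846 and 1153 with voom on recovered reads. Calls higher were 779 by the median of ratios, 758 by quantile normalization, 710 when scaled to the reads of nuclear genes and 642 without the trend. With a library left out, 230 to 1109 genes were higher and 233 to 686 lower, the lowest counts being without fatty acid replicate 1; the count of higher genes was 634 without control replicate 3 and, among fatty acid libraries, 239 without replicate 2 and 518 without replicate 3. With the replicate block, 817 genes were higher and 657 lower, and 3 of the 10 were called. Deviations of same-numbered libraries from their group means had correlations of 0.0122, 0.0836 and 0.0224. Those of differently numbered libraries ran from -0.094 to 0.0731. Whether same-numbered samples share a culture or batch is not stated in the labels and cannot be told from these values. Of 26 list genes followed, 13 kept their call or lack of it in every alternative, and none reversed. The cause of these differences was not tested. PLIN5, HILPDA and BSCL2 had the fewest reads of the 10 genes, with 125, 137 and 43 in the controls.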
